A study of Mus musculus with 2 samples.

Results

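The 204 mouse hairpins named Mir1000 to Mir5999 were examined by microRNA-seq in heart tissue, among 2202 miRNA genes counted. Members were chosen by name and chromosome: of the 230 GENCODE M21 genes with such a number, 25 on chromosome 12 and 1 further hairpin were left out. The 2 libraries form a single group, heart from adult male mice of strain 5xFAD/CAST, aged 8 to 10 months and supplied by The Jackson Laboratory. 5xFAD carries transgenes that drive amyloid deposition in the brain, with expression directed to neurons, and CAST is a wild-derived inbred strain. Both libraries share this background, so no wild-type or untreated group was compared. The labels call the libraries biological replicates 1 and 2 under a shared donor entry, and whether each came from its own animal is not stated. Spreads and p-values here thus describe how far these libraries lie apart, a distance that may be technical. Throughout, paired counts are given for replicate 1 and then replicate 2, and a mean with an SD has n = 2.

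A microRNA is a short RNA that guides Argonaute proteins to messenger RNAs through its seed, bases 2 to 8. In the usual pathway the nuclease Drosha, with its partner Dgcr8, cuts a hairpin out of a longer transcript, and Dicer trims the hairpin to the mature form. Numbers are assigned in order of discovery, so high numbers mostly belong to hairpins found by deep sequencing. Some of these follow other routes: a mirtron is a short intron that folds into a hairpin after splicing, and other miRNAs are cut from small nucleolar RNAs (snoRNAs), which guide chemical modification of other RNAs, from their Cajal body relatives (scaRNAs), or from transfer RNAs. Hairpins such as Mir208a, in a myosin gene, are better known in heart than the members described here.

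The mature miRNAs of the 7 members with the highest levels are shown first, because these hairpins held most of the counts of the set. The sequences are RefSeq mature forms (GRCm38.p6), 5′ to 3′, with the seed in capitals. For Mir3102 RefSeq lists a second, inner pair of mature forms, which is not printed. The counts are per hairpin, so they do not say which arm was read.
miR-1839-5p: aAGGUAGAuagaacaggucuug
miR-3102-5p: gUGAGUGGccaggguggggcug
miR-3102-3p: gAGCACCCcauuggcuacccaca
miR-1306-5p: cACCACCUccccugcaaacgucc
miR-1306-3p: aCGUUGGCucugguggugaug
miR-1249-3p: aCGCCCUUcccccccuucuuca
miR-1843b-5p: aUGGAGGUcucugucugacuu
miR-1843b-3p: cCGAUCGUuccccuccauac
miR-1981-5p: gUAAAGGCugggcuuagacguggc
miR-1981-3p: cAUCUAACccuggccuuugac
miR-1983: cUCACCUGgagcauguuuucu
Among the mature miRNAs of these 7 hairpins, the seeds of miR-3102-5p and miR-1983 were the only ones found in another mouse miRNA of the RefSeq table, miR-702-5p and miR-412-3p.

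A hairpin was called detected with at least 10 sense counts in both libraries, which is 2.57 CPM (counts-per-million of the sense total) in replicate 1 and 1.98 CPM in replicate 2. By this rule 35 of the 204 members were detected (17.2%), against 14.8% of all miRNA genes, or 325 of 2202. The share over all genes is lowered by 1028 genes with no Mir number, of which 8 were detected (0.778%). Of the 525 hairpins numbered below 1000 and let-7 hairpins, 254 were detected (48.4%), and of the 419 named Mir6000 or above, 23 (5.49%). A further 77 members had fewer counts and 92 had 0 in both libraries. A count of 0 leaves room for up to 3 counts, or 0.771 CPM in replicate 1 and 0.593 CPM in replicate 2. Counts fell in a single library at 35 members, 13 in replicate 1 and 22 in replicate 2, and never exceeded 6 there. The undetected members with the highest summed counts were Mir3074-1 with 41 and 8 counts, Mir3572 with 11 and 9, and Mir5131 with 7 and 13.

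Together the members were a minor part of the heart profile. They took 6122 of 3889280 sense counts in replicate 1, or 0.157% (95% Clopper-Pearson interval 0.153 to 0.161), and 8328 of 5058613 in replicate 2, or 0.165% (0.161 to 0.168), a mean of 0.161% ± 0.00511. A single hairpin, Mir1839, made up 19.5% of the members' counts in replicate 1 and 45.7% in replicate 2. Without it the members' share was 0.127% and 0.0894%, so its order between the libraries turned and the mean was 0.108% ± 0.0265. The 5 highest members held 67.1% and 74.2% of the members' counts, and the 10 highest 84.4% and 87.8%. Hairpins numbered below 1000 and let-7 held 99.8% of all sense counts in both libraries.

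Most detected members sat at the low end of the detected range. Their median level was 8.20 CPM, against 49.2 CPM over all 325 detected genes, 104 CPM for detected hairpins numbered below 1000 and let-7, and 5.36 CPM for those named Mir6000 or above. Only 7 of the 35 lay above the median of all detected genes. A mean of at least 100 CPM was reached by 5 members, and 23 of the 35 lay below 10 CPM. Since a hairpin needed the same number of counts to be called detected in each class, these medians describe only those above that limit.

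**Figure D1:**
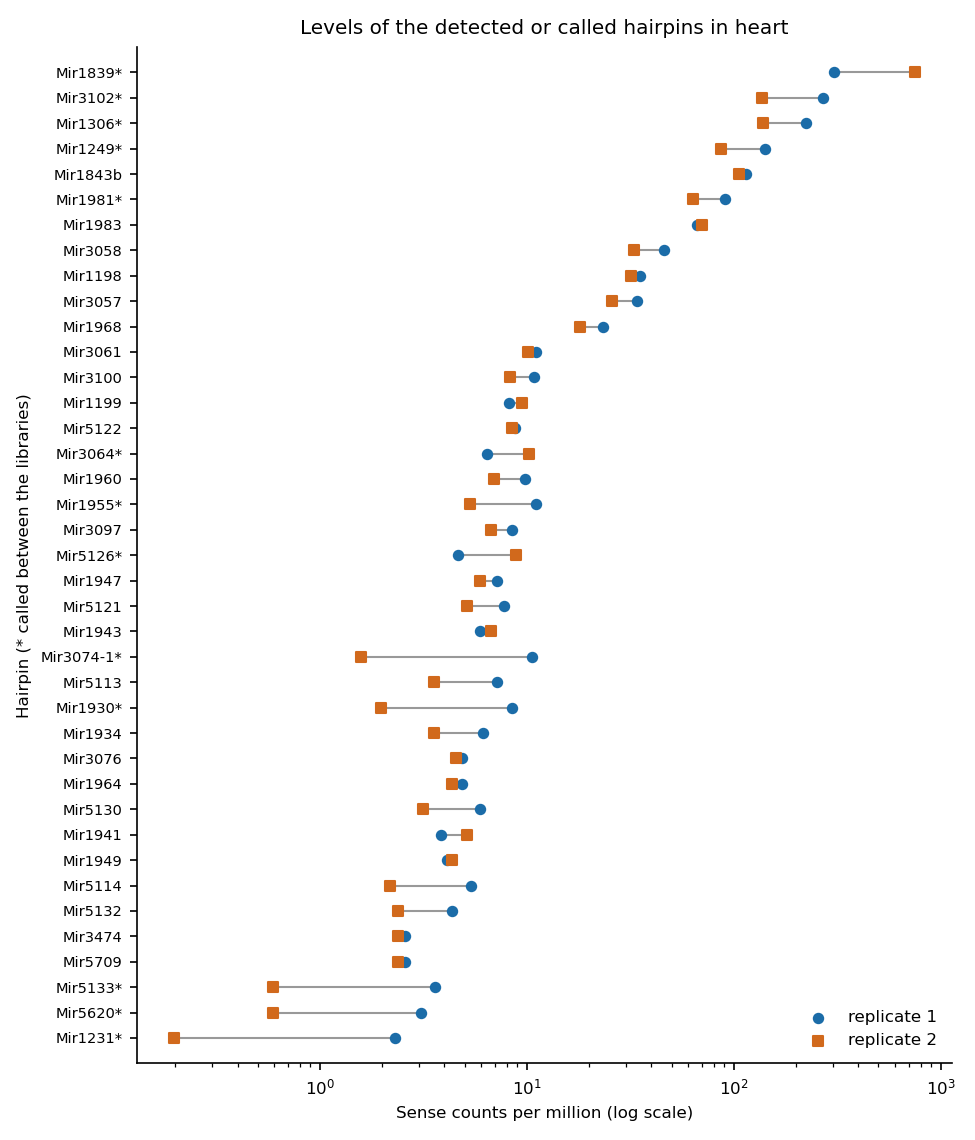
Sense CPM (log scale) of the 35 detected members and the 4 undetected members called between the libraries, ordered by mean, with a point for each library and a line joining them; an asterisk marks members past the test between the libraries. Mir1839 stands at 306 and 753 CPM at the top, and 23 of the 35 detected members have a mean below 10 CPM.

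As a check of the tissue label, 5 of 6 cardiac muscle hairpins were detected, with 25908 and 37559 counts, and the endothelial Mir126a had 338813 and 444082. Both smooth muscle, both erythroid and all 3 leukocyte hairpins were detected, at 117210 and 211184, 1244 and 1098, and 7613 and 9051 counts. Of the fibroblast list 2 of 3 were detected (10123 and 6359 counts, 1 at 0), and of the epithelial list 3 of 5 (339 and 882 counts). Of the 7 neuronal hairpins 1 was detected (802 and 724 counts over the list), and 4 were at 0 in both libraries. The cardiac hairpins differed in opposite directions between the libraries, with 15109 and 7513 counts for Mir208a and 10625 and 29787 for Mir499. Their part in the differences between libraries described here was not tested, and in bulk tissue fewer cells of a type and less RNA per cell cannot be told apart. Mir208a and Mir499 held nearly all of the cardiac counts, and Mir1a-2 had 141 and 222. Reads aligned to several places, 42.3% and 46.8% of those in the tables, were given to no gene. The lists hold numbered copies of a hairpin, such as those of Mir1a, Mir133a, Mir9, Mir124a and Mir199a. Reads that align to several copies are missing from these counts, and their number was not measured. Low or 0 counts of such copies thus do not show a low level.

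Mir1839 (ENSMUSG00000104618.1) was the highest member, at rank 79 of the 325 detected genes. It lies at chr7:81529916-81529988 on the plus strand of mm10, within the long noncoding gene 2900076A07Rik, and GENCODE also annotates a scaRNA over it. It had 1191 counts (306 CPM) in replicate 1 and 3808 (753 CPM) in replicate 2, a mean of 530 ± 316 CPM. The level in replicate 2 was 2.68-fold that in replicate 1 after scaling by the trimmed mean of M-values (TMM) with 1 CPM added, a log2 ratio of 1.42 (exact binomial test, adjusted p = 2.84e-222). In replicate 1 it stood 1.13-fold above the next member, Mir3102, and in replicate 2 it stood 5.42-fold above the next, Mir1306. Of the 412 tested genes, 24 had a larger log2 ratio in either direction.

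Mir3102 (ENSMUSG00000093296.1) filled an entire 104-base intron of Arhgef17 at chr7:100882306-100882409 on the minus strand. It had 1052 and 693 counts, a mean of 204 ± 94.4 CPM, and was higher in replicate 1 (log2 ratio -0.85, exact binomial test, adjusted p = 8.97e-34). Mir1306 (ENSMUSG00000080452.3) lies in a coding exon of Dgcr8, the gene for the partner of Drosha, at chr16:18284239-18284317 on the minus strand. Its counts were 868 and 702, a mean of 181 ± 59.7 CPM, and it too was higher in replicate 1 (log2 ratio -0.56, exact binomial test, adjusted p = 8.80e-14). The only other miRNA gene within 10 kb on that strand, Gm24572, had 0 counts in both libraries. Mir3102 and Mir1306 traded places between the libraries, at 270 and 223 CPM in replicate 1 and 137 and 139 CPM in replicate 2, so their order is not set by these data.

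Mir1249 (ENSMUSG00000080441.1) lies in an intron of 5031439G07Rik at chr15:84951526-84951623 on the minus strand. It had 553 and 441 counts, a mean of 115 ± 38.9 CPM, and was higher in replicate 1 (log2 ratio -0.58, exact binomial test, adjusted p = 1.11e-09). Mir1843b (ENSMUSG00000105399.1), in an intron of the ubiquitin ligase gene Cop1 at chr1:159340358-159340423 on the plus strand, had 446 and 534 counts, a mean of 110 ± 6.44 CPM. Its levels of 115 and 106 CPM were not called different. The order of this pair also turned, since Mir1249 stood at 142 CPM in replicate 1 and 87.2 CPM in replicate 2.

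Mir1981 (ENSMUSG00000088559.1) filled an entire 82-base intron of Marc2, a gene for a mitochondrial reductase, at chr1:184822407-184822488 on the minus strand. It had 352 and 321 counts (77.0 ± 19.1 CPM) and was higher in replicate 1 (log2 ratio -0.38, exact binomial test, adjusted p = 0.00159). Mir1983 (ENSMUSG00000088148.1) has no host gene on its strand and lies at chr13:21896918-21897049 on the minus strand, over a transfer RNA gene. It had 257 and 355 counts, or 66.1 and 70.2 CPM, and was not called different (log2 ratio 0.21, exact binomial test, adjusted p = 0.136). As in the pairs above, Mir1981 was above Mir1983 in replicate 1 and below it in replicate 2, where it stood at 63.5 CPM.

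Apart from the omission of chromosome 12, position was not part of the rule. The members were grouped by what the annotation places around them. An intron of a protein-coding gene held 97 members, of which 17 were detected. An exon of a protein-coding gene overlapped 39, of which 13 were detected (33.3%). Any base shared with an exon of a protein-coding transcript put a hairpin in this class, so some lie almost wholly in an intron. Detected were 9 of the 23 that overlap coding sequence, 3 of 11 that overlap a 3′ untranslated region and 2 of 10 that overlap a 5′ untranslated region. Some hairpins are in more than 1 of these. Of 13 members within a long noncoding RNA 2 were detected, and of 55 with no host on their strand, 3 (5.45%). All these shares are to be read beside the 17.2% of all members and the 14.8% of all miRNA genes.

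**Figure D2:**
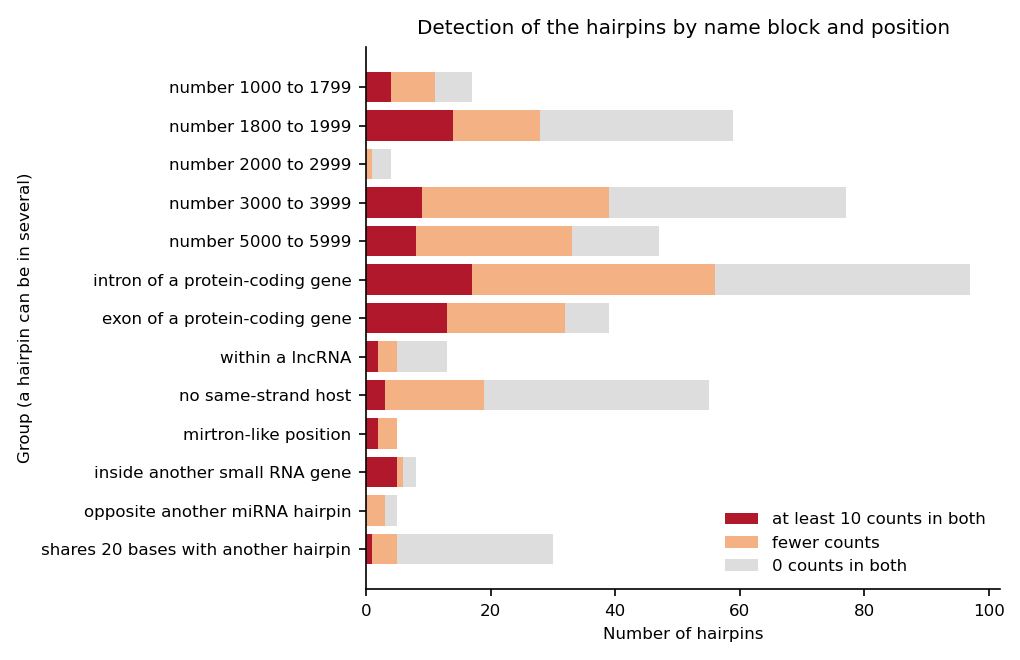
Number of members in each block of numbers, host class and special position, split into those with at least 10 counts in both libraries, those with fewer counts and those with 0 in both. Members overlapping an exon of a protein-coding gene had 7 of 39 at 0 in both libraries, and those sharing 20 bases with another hairpin 25 of 30.

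Below the 7 leading hairpins, the other 13 detected intronic members ranged from Mir3058 at 39.5 ± 9.20 CPM to Mir5709 at 2.47 ± 0.141 CPM. Mir3058, in the diphosphoinositol phosphatase gene Nudt4, had 179 and 167 counts and narrowly missed the test (log2 ratio -0.35, exact binomial test, adjusted p = 0.0512). Mir1198, in Gripap1, had 137 and 162 counts (33.6 ± 2.26 CPM), and Mir1968, in Grtp1, had 91 in each library (20.7 ± 3.82 CPM). Neither was called different between the libraries. Genes with known work in heart hosted some of the low members: Mir3100, in the myotonic dystrophy kinase gene Dmpk, had 42 counts in each library (9.55 ± 1.77 CPM). Mir1960, in Hadhb, which encodes a subunit of the mitochondrial fatty acid oxidation enzyme, had 38 and 35 (8.34 ± 2.02 CPM). Neither of these was called different.

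Among the remaining intronic members, Mir1955 in Phf21a, a gene for a histone demethylase partner, had 43 and 27 counts and was higher in replicate 1 (log2 ratio -0.82, exact binomial test, adjusted p = 0.0196). Mir1930, in the ubiquitin-conjugating enzyme gene Ube2g2, had 33 and 10 counts, so replicate 2 was at the limit of detection, and was higher in replicate 1 (log2 ratio -1.57, exact binomial test, adjusted p = 0.000134). Mir3097 in Rgs12 had 33 and 34 counts, Mir1947 in Lmln 28 and 30, Mir1943 in Tmem184b 23 and 34, Mir1964 in Zfp84 19 and 22, and Mir5709 in the receptor phosphatase gene Ptprm 10 and 12. Mir1949, in Gm28285, had 16 and 22. None of these last 6 was called different.

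Of the 13 detected members that overlap exons, Mir1306 alone had a mean above 30 CPM. Mir3057, in coding sequence of Apba3, followed with 132 and 131 counts (29.9 ± 5.69 CPM), and Mir3061, in the 3′ untranslated region of Ppp2ca, the catalytic subunit of protein phosphatase 2A, with 43 and 51 (10.6 ± 0.689 CPM). The next, between 8 and 9 CPM, were Mir1199 in coding sequence of 2210011C24Rik with 32 and 48 counts, and Mir5122 with 34 and 43. Mir3064, in the RNA helicase gene Ddx5, had 25 and 52 counts (8.35 ± 2.72 CPM). It was higher in replicate 2 (log2 ratio 0.71, exact binomial test, adjusted p = 0.0483), but was not called with total-count scaling or with no filter. Gm25994, annotated within 10 kb of Mir3064 on its strand, had 1 and 0 counts.

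The other members that overlap exons had 10 to 30 counts per library. Mir5121, in the ribosomal protein gene Rpl13a, had 30 and 26 counts. Mir5113, in the 3′ untranslated region of Tnrc6b, itself a gene of the miRNA silencing complex, had 28 and 18. Mir5130, in the 5′ untranslated region of Kctd12, had 23 and 16, and Mir3076, in the transketolase gene Tkt, had 19 and 23. Mir5114 in the fatty acid desaturase gene Scd2 had 21 and 11, Mir5132 in the kinase gene Irak1 had 17 and 12, and Mir3474 in Actr5 had 10 and 12. None of these 7 was called different between the libraries. An annotated intron spans nearly all of Mir5121, Mir3076 and, above, Mir3064, with an intron end 1 base from a hairpin end. For a hairpin in an exon, fragments of the host messenger RNA and reads of the miRNA cannot be told apart in the tables.

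Outside protein-coding hosts, Mir5126, a GC-rich hairpin (83.1% G or C) with no host on its strand, had 18 and 45 counts and was higher in replicate 2 (log2 ratio 0.92, exact binomial test, adjusted p = 0.0179). Mir1934 had 24 and 18 counts and also lacks a host. Mir1941, in the long noncoding gene Gm35853, had 15 and 26. Neither Mir1934 nor Mir1941 was called different.

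Of the members, 5 had both hairpin ends within 5 bases of the ends of an annotated intron, the position of a mirtron, and 2 of these were detected. All 5 are shown because their ends can be read against the intron ends. Letters are the GENCODE M21 transcript strand, 5′ to 3′, and capitals mark the first 2 and last 2 bases.
Mir3102: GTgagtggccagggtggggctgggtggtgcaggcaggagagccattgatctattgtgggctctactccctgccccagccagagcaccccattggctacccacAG
Mir1981: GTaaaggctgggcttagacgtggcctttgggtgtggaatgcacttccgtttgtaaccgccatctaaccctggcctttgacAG
Mir3547: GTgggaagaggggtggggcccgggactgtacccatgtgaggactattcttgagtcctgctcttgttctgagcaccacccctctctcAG
Mir1982: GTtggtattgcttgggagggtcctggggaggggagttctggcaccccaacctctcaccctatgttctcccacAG
Mir1224: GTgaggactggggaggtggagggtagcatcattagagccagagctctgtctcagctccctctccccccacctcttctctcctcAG
Every hairpin of the 5 began with GT and ended with AG, the bases at the ends of most introns, and matched its intron with 0 bases over at either end.

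In the 2 detected mirtrons the 5p miRNA begins at the first base of the intron: miR-3102-5p and miR-1981-5p lie 0 bases from the hairpin's 5′ end. Mir3102 and Mir1981 held nearly all of the group's 1423 and 1032 counts. Mir3547, at chr17:25245551-25245638 on the minus strand in Baiap3, had 6 and 9 counts. Mir1982, at chr10:80828797-80828870 on the plus strand in the antizyme gene Oaz1, had 6 in each library. Mir1224, at chr16:20604452-20604536 on the plus strand in Vwa5b2, had 7 and 3. All 5 were tested: 2 were called higher in replicate 1, against 22.6% of all tested genes, and 0 higher in replicate 2, against 22.8%. The group took 23.2% of the members' counts in replicate 1 and 12.4% in replicate 2. In a further 14 members only the 3′ end lay within 5 bases of an intron end, a group chosen after the values were seen, and 4 of these were detected: Mir3100, Mir3064, Mir3097 and Mir3076.

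Of 8 members that overlap another small RNA gene, 5 were detected. In 7 of the 8 the other gene lies on the same strand, and for Mir1983 its strand was not given. They took 31.7% of the members' counts in replicate 1 and 57.0% in replicate 2. Of these, 4 hairpins are shown with the letters of the mature miRNAs in capitals, since these letters fall wholly or partly inside the other gene.
Mir1839: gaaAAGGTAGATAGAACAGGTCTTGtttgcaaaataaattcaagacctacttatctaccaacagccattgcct
Mir1843b: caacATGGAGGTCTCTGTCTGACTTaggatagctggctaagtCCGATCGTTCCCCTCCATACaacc
Mir5121: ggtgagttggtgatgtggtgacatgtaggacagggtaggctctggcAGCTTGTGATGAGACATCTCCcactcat
Mir1983: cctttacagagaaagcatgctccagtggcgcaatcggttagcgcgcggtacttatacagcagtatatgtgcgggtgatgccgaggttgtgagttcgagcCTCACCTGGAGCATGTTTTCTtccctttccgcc
The Mir1839 hairpin shares 66 of its 73 bases with the scaRNA, which begins 61 bases upstream, and all 22 bases of miR-1839-5p lie inside it. Mir1843b shares 98.5% of its bases with Scarna3a, and both of its mature miRNAs lie inside. Mir5121 (chr7:45126918-45126991, minus strand) shares 30 bases with Snord33, and all 21 bases of its mature miRNA lie inside.

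Mir1983 differed from these 3 in that its mature miRNA crosses the end of the other gene. Of the 21 bases of miR-1983, 13 lie inside the RefSeq transfer RNA gene n-TItat14 and 8 lie past its end. The overlap with that gene is by position only. Mir1949 shares 94.3% of its bases with a snoRNA. The 3 undetected members of the group were Mir1291, over Snora34, with 3 and 6 counts, and Mir1897 and Mir3084-1 with 0 in both libraries. The tables count miRNA genes alone, so fragments of the scaRNA, snoRNA or transfer RNA and reads of the miRNA cannot be told apart. Among the 5 tested members of the group 1, Mir1839, was called higher in replicate 2, against 22.8% of all tested genes, and 0 were called higher in replicate 1, against 22.6%.

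**Figure D3:**
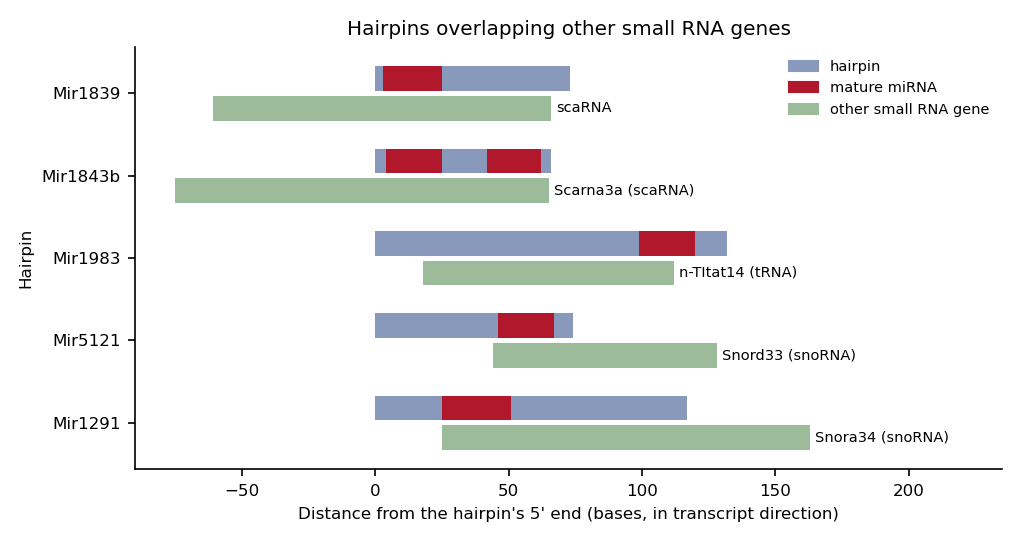
Position of 5 member hairpins, their mature miRNAs and the overlapping small RNA gene, in bases from the hairpin's 5′ end in transcript direction; these are the members of the group with counts and a RefSeq mature miRNA. The mature miRNA lies inside the other gene in Mir1839, Mir1843b, Mir5121 and Mir1291, and crosses its end in Mir1983.

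For 5 members another miRNA hairpin is annotated on the opposite strand of the same site, and 0 of them were detected. For Mir3074-2 and Mir3065 nearly all counts lay on the strand of the better known hairpin. Mir3074-2 had 0 counts in both libraries, while Mir24-2 opposite had 978 and 1400. The member's share of the pair's counted reads is thus at most 0.376% and 0.263% (upper 95% Clopper-Pearson limits). Shares of a pair, here and below, leave out reads aligned to several places, so they do not bound the share of all reads. Mir3065 had 6 in each library against 984 and 1239 for Mir338, or 0.606% of the pair (0.223 to 1.31) and 0.482% (0.177 to 1.05). Mir5615-1 and Mir5615-2, which lie opposite each other, had 0 and 1 counts and 0 and 0.

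Mir3074-1 was the exception in replicate 1. Opposite Mir24-1 at chr13:63301199-63301283 on the minus strand, in an intron of Fancc, it had 41 and 8 counts, against 389 and 575 for Mir24-1. Its share of the pair was 9.53% (6.93 to 12.7) in replicate 1 and 1.37% (0.594 to 2.69) in replicate 2. Mir3074-1 was higher in replicate 1 (log2 ratio -2.07, exact binomial test, adjusted p = 2.07e-07), the lowest log2 ratio of the 54 tested members. Mir24-1 was higher in replicate 2 (log2 ratio 0.31, exact binomial test, adjusted p = 0.00294). Whether the members' log2 ratios differed from those of their partners was not tested.

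The mature miRNAs of these members are shown with the seed in capitals, since RefSeq gives the same miR-3074-5p for both Mir3074 hairpins.
miR-3074-5p: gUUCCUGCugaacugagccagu
miR-3074-2-3p: uGUUUCAGcucaguaggcac
miR-3065-5p: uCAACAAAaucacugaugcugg
The hairpins Mir3074-1 and Mir3074-2 share a stretch of at least 20 bases, so reads that align to both were given to neither. In the count column that ignores strand Mir3074-1, Mir3074-2 and Mir3065 had 0 counts. Their partners Mir24-1 and Mir24-2 also had 0 there, and Mir338 had 0 and 1, so that column holds almost no reads of either strand at these sites. At the other 199 members the opposite strand held 13 and 10 counts in all, spread over 11 members.

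**Figure D4:**
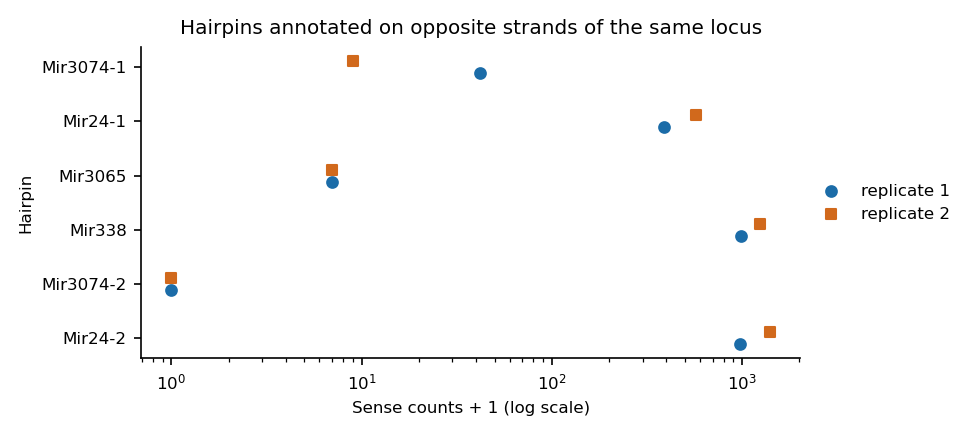
Sense counts plus 1 (log scale) of 3 member hairpins and the hairpin annotated on the opposite strand of each, a point for each library. Mir24-1, Mir338 and Mir24-2 had 389 to 1400 counts, and their partners 0 to 41.

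In the test between the libraries, which covers counting error only and compares these libraries rather than conditions, 54 members had the sum of 10 counts it required. Of these 13 were called, against 45.4% of all 412 tested genes. Higher in replicate 1 were 10 members, against 22.6% of all tested genes, and higher in replicate 2 were 3, against 22.8%. The 3 were Mir1839, Mir3064 and Mir5126. With total-count scaling 12 members were higher in replicate 1 and 2 in replicate 2, and the share of all calls that were higher in replicate 2 went from 50.3% to 39.7%. The median log2 ratio of all detected genes was 0.0055 with TMM and -0.12 with total counts. Calls depend on the depth of each hairpin, and most members were shallow.

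Calls were therefore also read within classes of depth. With at least 10 and under 100 summed counts 8 of 43 members were called, against 16.3% of all genes tested at that depth. With at least 100 and under 1000 2 of 8 members were called, against 43.0%, and with at least 1000 all 3 were called, against 87.3%. The share called lay near the background in the shallowest class, and the deeper classes hold few members. The median log2 ratio of the tested members was -0.15, against -0.0038 for all tested genes, with a range from -2.07 to 1.42. By sign alone 33 of the tested members had the higher level in replicate 1, and 21 in replicate 2. The same split over all tested genes is not given, and with no filter the members' median log2 ratio was 0.012. Of the 35 detected members 26 lay within 1.5-fold between the libraries (74.3%), against 70.2% of the 325 detected genes.

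**Figure D5:**
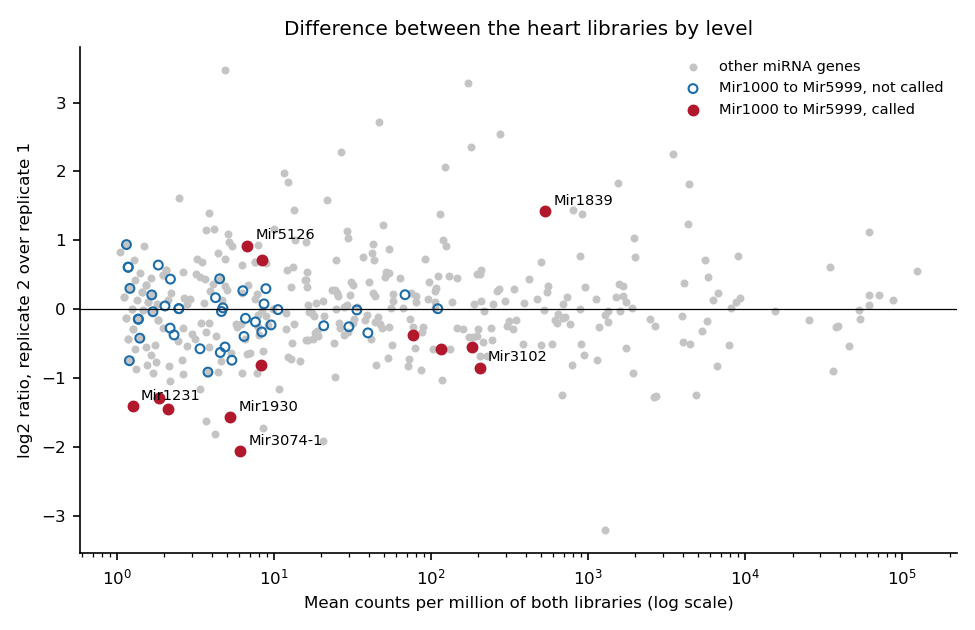
Log2 ratio of replicate 2 over replicate 1 (TMM scaled, 1 CPM added) against mean CPM (log scale) for the 412 tested genes; filled points are the 13 members called by the exact binomial test, open points the 41 tested members not called, and grey points the other miRNA genes. The members spread from -2.07 for Mir3074-1 to 1.42 for Mir1839.

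Of the 13 called members 4 were undetected and rest on few counts in replicate 2. Besides Mir3074-1 these were Mir5133, in the 5′ untranslated region of Glce, a gene of heparan sulfate synthesis, with 14 and 3 counts, a ratio of 5.57 (95% counting interval 1.55 to 30.2) and an exact binomial adjusted p of 0.00688. Mir5620, which has no host, had 12 and 3 counts, a ratio of 4.77 (1.29 to 26.3) and an exact binomial adjusted p of 0.0202. Mir1231, in an intron of Nav1, had 9 and 1 counts, a ratio of 10.7 (1.49 to 470.5) and an exact binomial adjusted p of 0.0176. For Mir3074-1 the ratio of replicate 1 to replicate 2 was 6.11 (2.83 to 15.1). These ratios are scaled by TMM with no value added, and their intervals show that their size is poorly set.

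By block of numbers, 4 of the 17 members named Mir1000 to Mir1799 were detected, 14 of 59 from Mir1800 to Mir1999, 0 of 4 from Mir2000 to Mir2999, 9 of 77 from Mir3000 to Mir3999 and 8 of 47 from Mir5000 to Mir5999, and the rule found 0 members from Mir4000 to Mir4999. The block from Mir1800 to Mir1999, which holds Mir1839, Mir1843b, Mir1981 and Mir1983, took 42.6% and 64.5% of the members' counts. The block from Mir5000 to Mir5999 took 4.30% and 3.30%, with no member above 10 CPM.

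Most members lie apart from other miRNA genes. This holds for the set after the rule left out 25 genes on chromosome 12, and the share over all miRNA genes is not given. Only 12 of the 204 had another miRNA gene within 10 kb on the same strand, and 4 of these were detected, Mir1306, Mir3064, Mir1949 and Mir5132. Beside Mir5132, Mir718 had 0 counts in both libraries, and beside Mir1949, Gm49347 had 33 and 37. Thus the other 31 detected members had no such neighbour.

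A stretch of at least 20 bases was shared with another hairpin by 30 members, of which 25 had 0 counts in both libraries and 1 was detected, Mir1843b. Of the 174 members that share no such stretch, 67 had 0 in both and 34 were detected. Reads given to no gene were not counted per hairpin, so their part in these counts was not tested. The level of Mir1843b is uncertain, as is that of Mir1843a, the hairpin with which it shares the stretch, which is no member and had 504 and 825 counts (146 ± 23.7 CPM).

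Seeds were compared for the members with a RefSeq entry. By name 185 of the 204 matched, 181 with a mature sequence, among them 34 of the 35 detected. These 34 have 57 mature miRNAs, of which 49 had a seed found in no other miRNA among the 1679 mature sequences of the table. The remaining 8 come from 8 different hairpins. Besides miR-3102-5p and miR-1983, 3 more are printed because their partners are named next, with the shared seed in capitals.
miR-1947-3p: gCACUGAGcuagcucucccucc
miR-1943-5p: aAGGGAGGaucugggcaccugga
miR-3064-5p: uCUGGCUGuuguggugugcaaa
miR-1947-3p has its seed in common with miR-674-5p and miR-3473d, miR-1943-5p with miR-149-3p, miR-6967-5p and miR-7016-5p, and miR-3064-5p with miR-3085-3p.

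The partners stood at levels unlike those of the members. Mir149 had 189654 and 121032 counts, against 23 and 34 for Mir1943. Mir674 had 2820 and 11962, against 28 and 30 for Mir1947. Mir702 had 61 and 30 counts and Mir412 6 and 1, below Mir3102 and Mir1983. These are counts per hairpin, and which arm they came from was not measured. Within the set, Mir3473d had 1 and 0 counts and Mir3085 had 0 in both libraries. In all 13 members, 4 of them detected, share a seed with a miRNA numbered below 1000. The other 3 shared seeds of detected members, in Mir3058, Mir5114 and Mir3474, match miRNAs with names of that last class, above Mir6000.

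Detected and undetected members differed little in length, with medians of 82 and 81 bases. The median GC content was 56.1% in detected members (quartiles 52.7 and 60.1) and 51.8% in undetected members (45.3 and 57.6). The predicted folding energy per base was -0.483 kcal/mol (quartiles -0.554 and -0.379) in detected and -0.422 kcal/mol (-0.492 and -0.350) in undetected members. The ranges of both measures overlapped widely, and no test was made.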

How the data were processed

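Small RNA of 2 heart libraries was counted per annotated hairpin. The deposited tables hold raw read counts in 3 columns, of which the first ignores strand and the next, column 3 of the file, holds the sense strand, judged from layout and values; 4 summary lines name no gene and were left out of library sizes and tests. Description files deposited beside the tables name build mm10 and GENCODE M21, and the size range was below 30, per the labels. The aligner and its filters were not given in the sources used here. Replicate 1 had 10824381 reads in its table, 35.9% of them sense counts, and replicate 2 had 14212392, 35.6% of them sense counts.

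CPM is the counts-per-million value of a hairpin, taken on the sense total of its library. Differences were tested with a two-sided exact binomial test per gene at the ratio of TMM effective library sizes (edgeR 4.0.16, R 4.3.3, factors 1.04 and 0.958), for genes with a sum of at least 10, with Benjamini-Hochberg adjustment over all 412 at 0.05. With a single group, edgeR's quasi-likelihood test had no contrast to fit. No molecular identifiers are described for these PCR reads, so tests, intervals and floors cover counting error only. GENCODE M21 held all 2202 gene identifiers and gave positions, hosts and hairpin letters. Mature sequences and transfer RNA genes came from RefSeq tables of GRCm38.p6, the same build. Folding used ViennaRNA 2.7.2. The test was checked on simulated counts that vary by counting error only and are scaled by library totals. That check does not cover any further spread between libraries. Alternatives were total-count scaling, DESeq2 1.42.0 size factors, other filters, added values and count columns.

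Named were all detected and all called members, the 3 undetected members of highest summed count, those opposite another miRNA hairpin with at least 100 counts on that strand, and members sharing a seed with a detected member. Mirtrons, members over other small RNA genes, neighbours and seed partners were named besides, after their values were seen. The host gene of 1 member is not reported here. The members and lists were chosen with earlier results of these data known.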

Additional observations from a re-analysis of the deposited data

Results flagged for a closer look

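Mir5620, a hairpin with no host gene and no miRNA gene annotated opposite, had 5 counts on the opposite strand in replicate 2, above the 3 counts taken as the floor, and 0 in replicate 1. Its sense counts were 12 and 3. No comparison uses the opposite strand of this hairpin, and the source of these counts was not tested.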

How the results depend on the processing

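Asking for 1 count in both libraries gave 77 detected members, and asking for 50 counts gave 11. Either library alone gave 38 to 40 detected members. The members' mean share was 0.210% in the column that ignores strand, 0.0576% of all reads in the tables and 0.108% without Mir1839, and 0.157% to 0.165% with either replicate left out. Requiring a sum of 50 counts left 6 members higher in replicate 1. With no filter the members' median log2 ratio was 0.012, against -0.15. The cause of these shifts was not tested beyond the change in hairpins or reads counted. Of the 13 calls, 12 remained with total-count scaling, 13 with DESeq2 size factors, 12 with no filter, 11 in the column that ignores strand and 8 when a sum of 50 was required, which left the other 5 untested. Total-count scaling lost Mir3064 (log2 ratio 0.60, exact binomial test, adjusted p = 0.123) and added Mir3058 (-0.47, 0.00615) and Mir5114 (-1.01, 0.0285). With no filter Mir3064 was again the call lost. The column that ignores strand lost Mir5620 (-0.63, exact binomial test, adjusted p = 0.394) and Mir3074-1, which has 0 counts there, and added Mir3058 (adjusted p = 0.0461). The counts of detected mirtrons and of detected members opposite another hairpin did not change under their alternatives. At 0 counts, as for 92 members, a level below the floor and no expression cannot be told apart. For the 25 of them that share at least 20 bases with another hairpin, the level may also lie above the floor. Reads aligned to several places are missing from their counts. No paired analysis was possible because the libraries form a single group.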
